A study of Pongo abelii with 8 samples.

Results

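The keratins examined here are the genes whose probe sets carry a single keratin symbol in the platform annotation, that is, KRT followed by a number and, for some genes, the letter A, B or C. The rule gave 36 probe sets of 22277 on the array, for 32 genes of 11963 named by 1 symbol. RNA came from 8 cultures of 2 Sumatran orangutans (Pongo abelii), each on its own Affymetrix array built for human transcripts. The cultures were 6 iPSC colonies, 3 from KB10973 (a 29 year old male) and 3 from KB10460 (a 43 year old female), and 2 dermal fibroblast cultures, 1 from each of the same animals. Both animals are labelled healthy control. The fibroblasts were grown from skin biopsies of the upper limb. The iPSCs were made from them with retroviruses carrying the human cDNAs of OCT4, SOX2, KLF4 and c-MYC and were kept with mouse feeder cells or medium conditioned by them. The growth protocol gives the iPSCs a serum replacement medium and the fibroblasts a medium with serum, so medium and cell type cannot be told apart. The colonies of an animal are no independent replicates, so each p-value speaks of the scatter among cultures from 2 orangutans and not among orangutans.

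Keratins are the intermediate filament proteins of epithelial cells. Each filament pairs an acidic type I keratin with a basic type II keratin, so epithelia express the genes in pairs. KRT8 and KRT18 form the pair of simple, single-layered epithelia and are the first keratins made in the mammalian embryo. KRT5 and KRT14 mark the basal layer of the epidermis, KRT1 and KRT10 the layers above it, and the hair keratins build the hard keratin of hair and nails. Dermal fibroblasts are mesenchymal cells whose main intermediate filament protein is vimentin.

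The cell type labels were checked against marker lists. By the calling rule given below, 15.2% of all genes were higher in the iPSCs and 11.5% were lower. Values are log2 expression after RMA (robust multi-array average). RMA makes the distributions of probe intensities equal on all arrays before probes are combined into probe sets. Summed signals are sums of the unlogged values. Of the 4 measured markers of pluripotent cells, 4 were higher in the iPSCs, with a summed signal of 3625 to 4420 in the iPSCs and 67.5 to 90.6 in the fibroblasts. Of 8 fibroblast markers, 7 were lower in the iPSCs and 1, THY1, was higher, with a summed signal of 339 to 649 in the iPSCs and 16013 to 19099 in the fibroblasts. The array medians lay at 3.74 to 3.79 in the iPSCs and at 3.80 to 3.82 in the fibroblasts.

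The summed keratin signal was higher in the iPSC colonies, and the rise lay in 3 keratins of simple epithelia. Summed over the 32 genes, at 1 probe set each (the one with the highest mean over the 8 arrays), the signal was 3220 to 6910 in the iPSCs (median 4845), against 438 and 573 in the fibroblasts. Without KRT8, KRT18 and KRT19 it was 313 to 331 in the iPSCs and 381 to 430 in the fibroblasts. A gene was called at a change of more than 1.5-fold with a Benjamini-Hochberg adjusted p under 0.05 in limma, fitted to all probe sets. By this rule 3 keratins were higher in the iPSCs, against 15.2% of all genes, and 2 were lower, against 11.5% of all genes. Both counts were below these background shares. The other 27 keratins were not called. The median log2 fold change was -0.02 over the 32 keratins and -0.00393 over all genes. By class, the 6 simple epithelial keratins had 3 higher, 1 lower and 2 not called (median 1.92), and the 14 stratified and 11 hair keratins had none called (medians -0.01 and -0.02). The remaining gene, KRT75 of the hair root sheath, was lower.

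**Figure D1:**
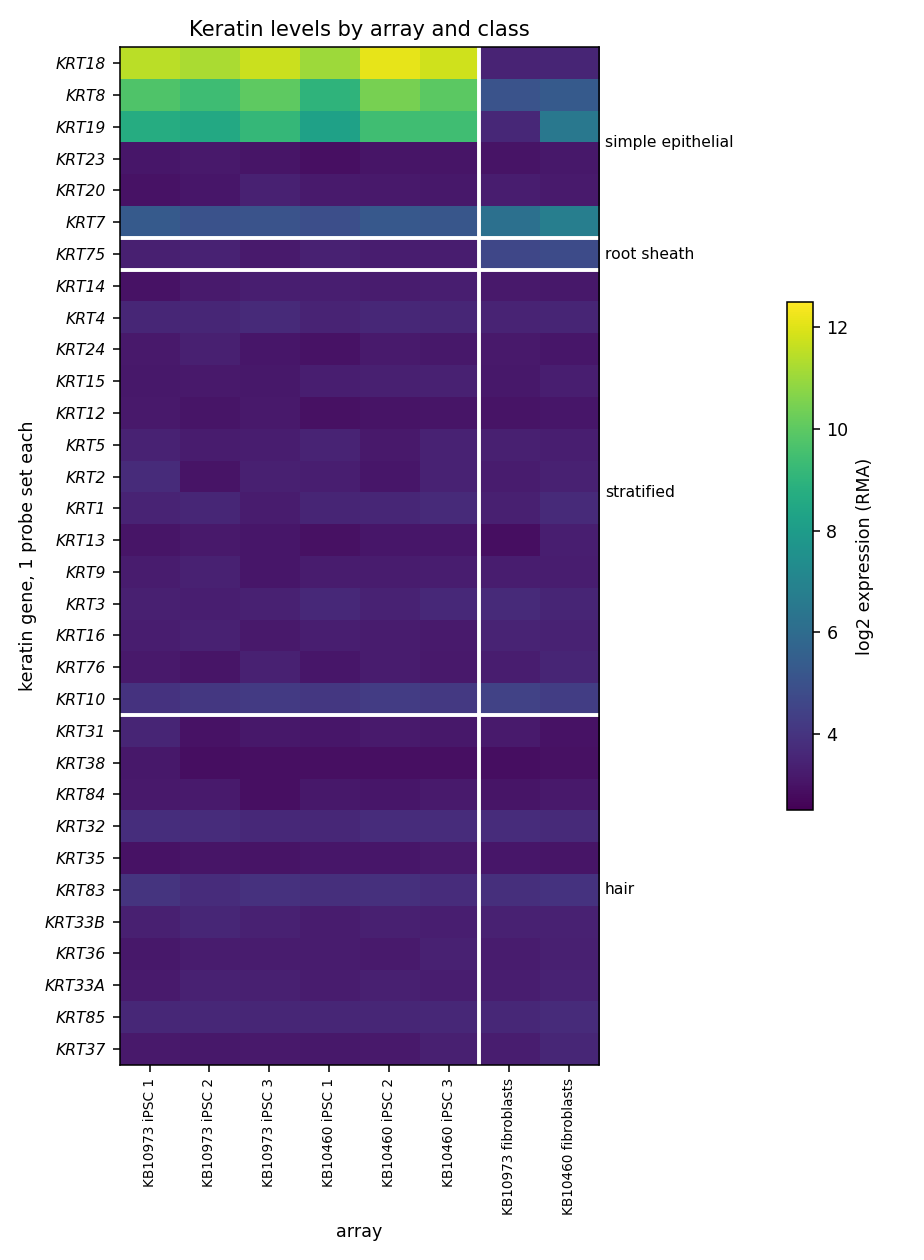
Log2 RMA expression (colour) of 32 keratins (vertical axis, 1 probe set each, grouped by class) on the 8 arrays (horizontal axis, 6 iPSC colonies left of the 2 fibroblast cultures). KRT18, KRT8 and KRT19 are bright in the 6 iPSC columns, KRT7 and KRT75 are brighter in the 2 fibroblast columns, and the stratified and hair classes are dark throughout, between 2.86 and 4.47.

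KRT18, the type I partner of the simple epithelial pair, had the largest change of the 32 keratins. Its log2 values ran between 11.03 and 12.14 in the 6 iPSC colonies (median 11.59), against 3.50 in the KB10973 fibroblasts and 3.55 in the KB10460 fibroblasts. The lowest colony lay 7.48 above the higher fibroblast culture on the log2 scale. The mean was 11.56 ± 0.39 in the 6 iPSC colonies and 3.52 ± 0.04 in the 2 fibroblast cultures (mean ± SD). The log2 fold change was 8.04 (standard error 0.25, 95% interval 7.47 to 8.60, limma adjusted p = 3.5e-08), a 263-fold difference in signal. It was 252-fold in KB10973 and 274-fold in KB10460. Ranked within each array, KRT18 reached a mean percentile of 99.2 in the iPSCs and 38.9 in the fibroblasts. A fibroblast signal this low is near the background of the array, which understates a fold.

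KRT8, the type II partner of KRT18, was also higher in every colony than in either fibroblast culture. The colonies had log2 values of 9.02 to 10.44 (median 9.85), against 5.07 in the KB10973 fibroblasts and 5.33 in the KB10460 fibroblasts. The means were 9.77 ± 0.50 (SD, n = 6) and 5.20 ± 0.19 (SD, n = 2), a log2 fold change of 4.57 (standard error 0.32, 95% interval 3.85 to 5.29, limma adjusted p = 6.9e-06). This is 23.7-fold over both donors, 25.2-fold in KB10973 and 22.3-fold in KB10460. The mean percentile of KRT8 was 97.3 in the iPSCs and 73.5 in the fibroblasts, so its fibroblast signal was not at the low end of the scale.

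KRT8 and KRT18 were each read by 1 probe set of the type marked _x_at, whose probes can also take up related transcripts, and both genes are known in primates for many pseudogenes. The probe sets annotated to the pseudogenes KRT8P12 and KRT19P2 lay between 3.09 and 3.86 on all 8 arrays. No probe set was annotated singly to a KRT18 pseudogene, so these values do not bear on KRT18. Signal taken up from other copies was not tested. In the orangutan assembly NHGRI_mPonAbe1-v2.0, KRT8 and KRT18 are neighbours, although KRT18 is a type I gene and most type I keratins lie on another chromosome. Of 26 keratins matched there by symbol, 10 lie on the chromosome of KRT18 and 16 on that of KRT19.

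KRT19, a short type I keratin of simple epithelia that lacks most of the tail domain, was higher in the iPSCs of both animals, and its fibroblast level differed between them. The colonies had log2 values of 8.21 to 9.44 (median 8.91). The KB10973 fibroblasts were at 3.61, under the array median, and the KB10460 fibroblasts at 6.50. All 6 colonies lay above both cultures, by at least 1.71 on the log2 scale. The means were 8.91 ± 0.50 (SD, n = 6) and 5.06 ± 2.05 (SD, n = 2), a log2 fold change of 3.85 (standard error 0.64, 95% interval 2.40 to 5.30, limma adjusted p = 0.0015). The signal was 36.3-fold higher in the KB10973 iPSCs and 5.73-fold higher in the KB10460 iPSCs than in the fibroblasts of the same animal. The KB10973 fibroblast value is at a level near background, so the fold in that animal may be understated, and the folds of the animals are not directly comparable. The 2 fibroblast arrays decide the size of this change. Leaving out the KB10460 fibroblasts gave 5.30, and leaving out the KB10973 fibroblasts gave 2.40. The call ended when the colonies were averaged within donor (limma adjusted p = 0.084). KRT19 lies between KRT15 and KRT9 in the assembly, and neither of these 2 neighbours was called.

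KRT7, a type II keratin of ducts and other simple epithelia, was lower in the iPSCs. Its colonies had log2 values of 4.91 to 5.33 (median 5.12), against 6.20 in the KB10973 fibroblasts and 6.78 in the KB10460 fibroblasts. Every colony was below both cultures. The means were 5.12 ± 0.16 (SD, n = 6) and 6.49 ± 0.41 (SD, n = 2), a log2 fold change of -1.36 (standard error 0.16, 95% interval -1.73 to -0.998, limma adjusted p = 0.00019). A second probe set of KRT7 gave another answer, with 3.27 to 3.46 in the iPSCs and 3.45 to 3.50 in the fibroblasts (log2 fold change -0.11, standard error 0.08, limma adjusted p = 0.38). That probe set was below the array median in both cell types. With the mean of both, the log2 fold change was -0.74 and KRT7 was still called (limma adjusted p = 0.00065). Both probe sets are of the _s_at type, which can read more than 1 transcript.

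The other 2 simple epithelial keratins stayed at a low signal in both cell types. KRT20, the type I keratin of intestinal epithelium, was at 3.18 ± 0.14 in the 6 iPSC colonies and 3.26 ± 0.05 in the 2 fibroblast cultures (mean ± SD) (log2 fold change -0.08, limma adjusted p = 0.66). KRT23 was at 3.07 ± 0.10 in the 6 iPSC colonies and 3.08 ± 0.09 in the 2 fibroblast cultures (mean ± SD) (log2 fold change -0.02, limma adjusted p = 0.91). A transcript at such a signal may be absent or below what the array can measure.

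KRT75, the type II keratin of the companion layer of the hair follicle, was the second keratin that was lower in the iPSCs. The colonies had log2 values of 3.22 to 3.46 (median 3.34), against 4.63 in the KB10973 fibroblasts and 4.80 in the KB10460 fibroblasts. The iPSC values were below the median of their arrays and the fibroblast values above it, and the groups did not overlap. The means were 3.34 ± 0.09 (SD, n = 6) and 4.72 ± 0.12 (SD, n = 2), a log2 fold change of -1.37 (standard error 0.09, 95% interval -1.57 to -1.18, limma adjusted p = 4.0e-06). The change was -1.28 in KB10973 and -1.47 in KB10460. In bulk RNA fewer cells with a transcript and less of it per cell cannot be told apart, and this holds for each gene named here.

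**Figure D2:**
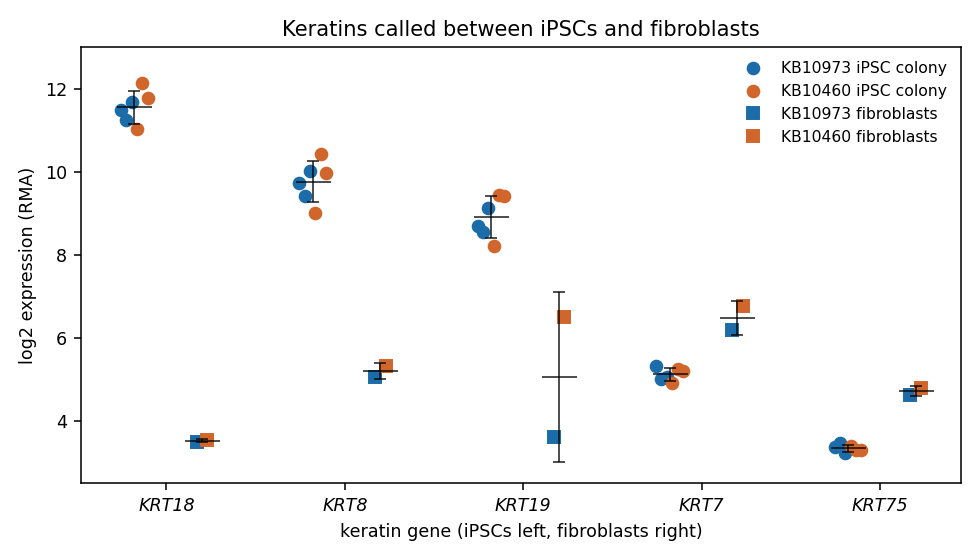
Log2 RMA expression (vertical axis) of the 5 called keratins (horizontal axis), with 1 point per array, iPSC colonies as circles to the left and fibroblasts as squares to the right. Horizontal lines are means and bars 1 SD (n = 6 and n = 2). The groups separate for all 5 genes, and the fibroblast bar of KRT19 spans the values 3.61 and 6.50.

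None of the 14 stratified keratins passed the test. The basal pair KRT5 and KRT14 had log2 fold changes of 0.00 (95% interval -0.23 to 0.23) and 0.09 (95% interval -0.15 to 0.32) in limma. KRT5 averaged 3.36 in the iPSCs and 3.36 in the fibroblasts, and KRT14 averaged 3.25 in the iPSCs and 3.16 in the fibroblasts. KRT1, the suprabasal type II keratin, had a log2 fold change of -0.02 (95% interval -0.31 to 0.26). Its partner KRT10 was at 4.13 ± 0.11 in the 6 iPSC colonies and 4.39 ± 0.11 in the 2 fibroblast cultures (mean ± SD), a log2 fold change of -0.26 (standard error 0.10, limma adjusted p = 0.071). Its further probe sets gave -0.31 (95% interval -0.63 to 0.00489, which reaches past a 1.5-fold decrease, limma adjusted p = 0.14) and -0.21 (limma adjusted p = 0.21). KRT76, a type II keratin of oral epithelium, had -0.21 (limma adjusted p = 0.19). The changes of the 14 genes ran between -0.26 and 0.09, and 13 of the 14, with KRT10 the exception, were below the array median on all 8 arrays. The summed signal of the class was 146 to 152 in the iPSCs and 151 to 156 in the fibroblasts.

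None of the 11 hair keratins passed the test either. Their log2 fold changes ran between -0.25 and 0.08, with a summed signal of 109 to 118 in the iPSCs and 114 to 118 in the fibroblasts. KRT37, a type I hair keratin, had the largest of these changes (-0.25, limma adjusted p = 0.091). Of the 11 genes, 9 were below the array median on all 8 arrays, while KRT32 and KRT83 were not. At the highest-mean probe set of each of the 27 uncalled keratins the 95% intervals lay within -0.48 and 0.40, and so within a 1.5-fold change either way. Near background such an interval bounds the change in signal and not the change in transcript.

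Counted by overlap alone, all 6 colonies lay above both fibroblast cultures for 3 keratins, KRT18, KRT8 and KRT19, where 23.6% of all genes did. All 6 lay below both cultures for 4 keratins, against 19.7% of all genes. These 4 were KRT7, KRT75, KRT10 and KRT16, a stratified keratin of stressed epidermis picked out after its values were seen (log2 fold change -0.19, limma adjusted p = 0.11). For the other 25 keratins the groups overlapped. By filament type, 2 of 20 type I genes were called higher and none lower, and of 12 type II genes 1 was called higher and 2 lower. Of all genes, 15.2% were called higher and 11.5% lower.

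**Figure D3:**
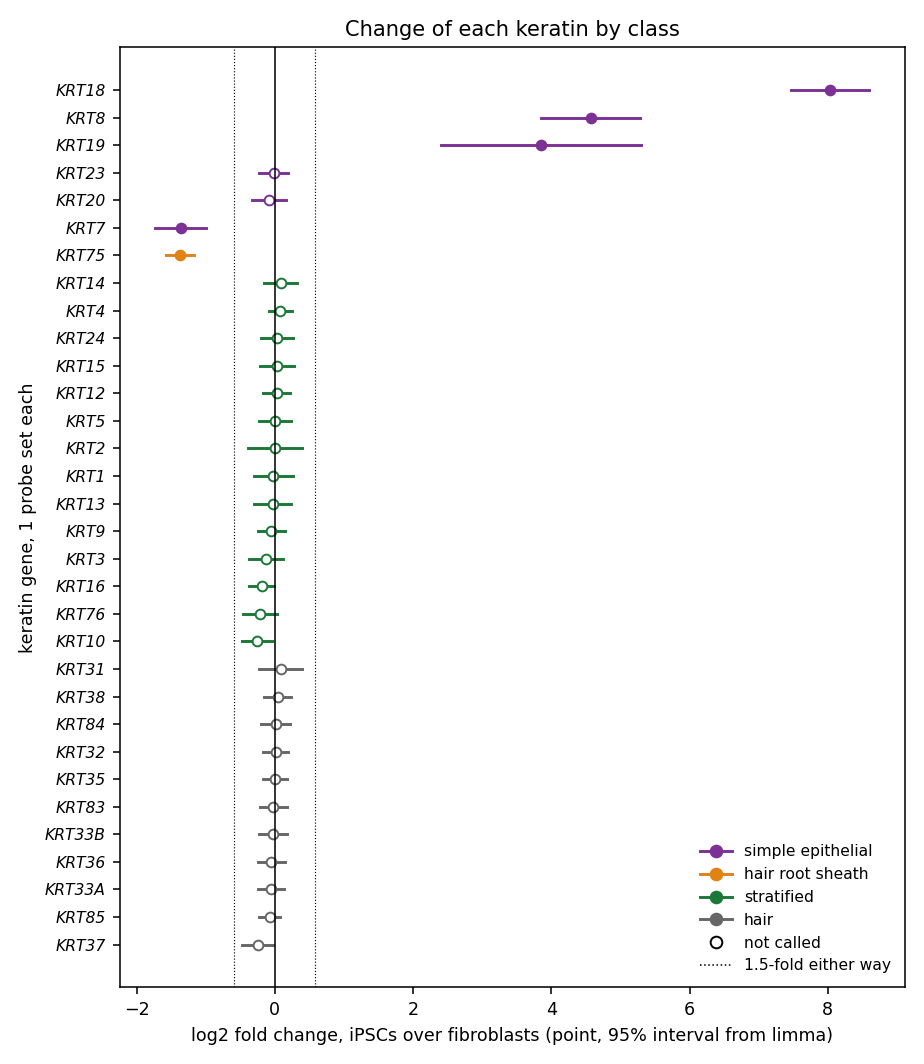
Log2 fold change of iPSCs over fibroblasts (horizontal axis, point with 95% interval from limma) for 32 keratins (vertical axis) coloured by class, with open points for genes not called and dotted lines at a 1.5-fold change. KRT18, KRT8 and KRT19 lie to the right at 8.04, 4.57 and 3.85, KRT7 and KRT75 lie to the left at -1.36 and -1.37, and all stratified and hair keratins lie between the dotted lines.

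The 3 keratins that were higher in the iPSCs also varied from colony to colony, and did so together. In the KB10973 colonies 1, 2 and 3, KRT18 was at 11.48, 11.25 and 11.69, KRT8 at 9.74, 9.41 and 10.03, and KRT19 at 8.69, 8.54 and 9.14. In the KB10460 colonies 1, 2 and 3, KRT18 was at 11.03, 12.14 and 11.78, KRT8 at 9.02, 10.44 and 9.97, and KRT19 at 8.21, 9.44 and 9.42. KB10460 colony 1 was thus the lowest of the 6 for all 3 genes and KB10460 colony 2 the highest.

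Over the 6 colonies KRT18 and KRT8 had a Pearson r of 0.988 (exact permutation p = 0.0028) and a Spearman rho of 0.943 (exact permutation p = 0.017). KRT18 and KRT19 had an r of 0.954 (exact permutation p = 0.0069) and a rho of 1.0 (exact permutation p = 0.0028, the smallest that 6 pairs can give for rho). KRT8 and KRT19 had an r of 0.938 (exact permutation p = 0.0083) and a rho of 0.943 (exact permutation p = 0.017). These tests are two-sided and treat the colonies as independent, which colonies of a donor are not. Adjusted over the 3 pairs, the permutation p of r was 0.0083 for each pair, and that of rho 0.017, 0.0083 and 0.017 in the same order. Without KB10460 colonies 1 and 2, which lay farthest from the median, r was 0.968, 0.957 and 0.875 in that order. Within a donor there are 3 colonies, and r was 0.947 and above in KB10973 and 0.950 and above in KB10460 for each pair. The 3 genes share the normalization of each array.

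Among 1897 probe sets with a mean log2 value over 6 and an SD over 0.2 in the iPSCs, taking the highest-mean probe set of each gene, the 5 genes with the highest r with KRT18 over the 6 colonies were NDUFA10 (0.993), KRT8 (0.988), CXCR4 (0.982), CYB5R1 (0.975) and S100A10 (0.956). KRT19 came next, at rank 6. NDUFA10 encodes a subunit of mitochondrial complex I, and CXCR4 the receptor of the chemokine CXCL12. NDUFA10 averaged 8.28 ± 0.25 (SD, n = 6) in the iPSCs, and CXCR4 averaged 6.54 ± 0.94 in the 6 iPSC colonies against 8.55 ± 0.50 in the 2 fibroblast cultures (mean ± SD). These correlations describe 6 arrays and carry no test.

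Endoderm markers also varied between the colonies. The summed signal of the 8 endoderm markers was 534, 285 and 590 in KB10973 colonies 1, 2 and 3 and 245, 801 and 1209 in KB10460 colonies 1, 2 and 3, against 101 to 114 in the fibroblasts. KB10973 colony 2 and KB10460 colony 1, which had the lowest keratin values of their donors, also had the lowest sums. The highest sum was in KB10460 colony 3, while the highest keratin values were in KB10460 colony 2. Of the 8 markers, 3 were higher in the iPSCs and 5 were not called, where 15.2% of all genes were higher and 11.5% lower. GATA6, a transcription factor of primitive endoderm, was at 7.33, 6.05 and 8.28 in KB10973 colonies 1, 2 and 3 and at 5.88, 8.86 and 9.03 in KB10460 colonies 1, 2 and 3, against 3.79 in the KB10973 fibroblasts and 3.47 in the KB10460 fibroblasts. SOX17 stayed between 3.49 and 4.62 in the colonies and FOXA2 between 3.43 and 5.58. AFP and TTR encode proteins secreted by yolk sac and liver. In KB10460 colony 2, where the keratin values were highest, AFP and TTR were lowest of the 6 colonies, at 5.43 and 3.60. SOX17, GATA4 and FOXA1 were highest of the 6 in that same colony, at 4.62, 4.23 and 3.27. The r with KRT18 over the 6 colonies was 0.932 for GATA6, 0.903 for SOX17, 0.811 for FOXA2 and 0.811 for FOXA1. It was 0.772 for GATA4, 0.694 for APOA1, -0.156 for TTR and -0.327 for AFP, with no test. The part of differentiated cells in the keratin values was not tested. In the colony with the lowest keratin values, KB10460 colony 1, KRT18 was at 11.03 and KRT8 at 9.02. GATA6 was at 5.88 and AFP at 6.27 in this colony, and all 4 genes lay above both fibroblast cultures.

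Of the markers of each of 2 other keratin-rich cell types 1 was called, where 15.2% of all genes were higher and 11.5% lower. Of 7 measured keratinocyte markers, 6 were not called and SFN was higher (log2 fold change 4.71), with a summed signal of 1191 to 2399 in the iPSCs and 122 to 139 in the fibroblasts. In the iPSCs this sum is mostly SFN, which averaged 10.71 there, while the other 6 averaged 2.97 to 3.78. SFN encodes the epithelial 14-3-3 protein stratifin. Of 7 measured trophoblast markers, 6 were not called and GATA3 was lower (log2 fold change -4.53), with a summed signal of 79.6 to 114 in the iPSCs and 467 to 674 in the fibroblasts. In the fibroblasts this sum is mostly GATA3, which averaged 8.92 there, while the other 6 averaged 3.06 to 4.29. All 7 lay between 2.94 and 4.93 in the iPSCs. Over the 6 colonies the r with KRT18 was 0.927 for HAND1, 0.922 for VGLL1, 0.875 for GATA2 and 0.765 for GATA3. It was 0.073 for ELF5, 0.055 for CGA and -0.086 for GCM1, with no test.

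**Figure D4:**
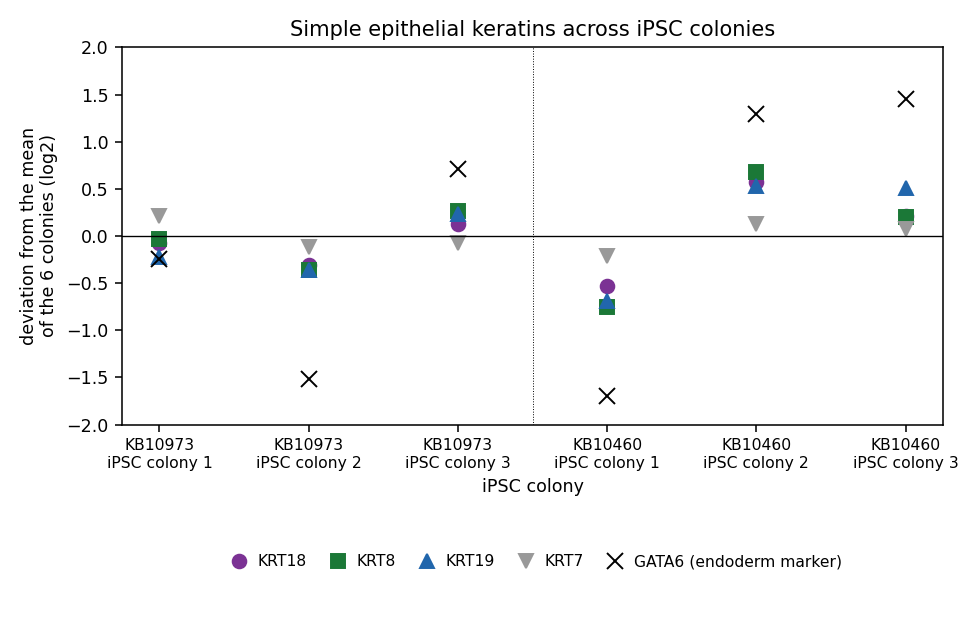
Deviation of KRT18, KRT8, KRT19, KRT7 and the endoderm marker GATA6 from their mean over the 6 colonies (vertical axis, log2) for each iPSC colony (horizontal axis, KB10973 left of KB10460). KRT18, KRT8 and KRT19 lie close together in each colony, lowest in KB10460 colony 1 and highest in KB10460 colony 2, and GATA6 spreads wider. The log2 levels behind the GATA6 deviations ran between 5.88 and 9.03.

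No keratin was called between the iPSCs of the 2 animals, where 0.142% of all genes were (17 of 11963, limma). At an unadjusted p under 0.05 there was 1 keratin probe set, that of the basal keratin KRT15 (KB10973 minus KB10460, log2 difference -0.22, limma adjusted p = 0.35). The difference of KB10973 minus KB10460 colonies was -0.17 for KRT18 (95% interval -0.79 to 0.44), -0.08 for KRT8 (-0.87 to 0.70), -0.23 for KRT19 (-0.998 to 0.53) and 0.01 for KRT7 (-0.28 to 0.31). The intervals of KRT18, KRT8 and KRT19 are wide enough to hold a change of more than 1.5-fold.

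The change on reprogramming was also compared between the animals, as the difference of the iPSC minus fibroblast changes in KB10973 minus KB10460. Here 1 fibroblast array stands for each animal and is assumed to vary like a colony. No keratin was called, against 3.42% of all genes. At an unadjusted p under 0.05 there were 3 keratin probe sets, of KRT19, KRT13 and KRT7. KRT19 changed by 5.18 in KB10973 and by 2.52 in KB10460, a difference of 2.66 (standard error 0.66, 95% interval 1.13 to 4.20, limma adjusted p = 0.091). Without KB10460 colony 1 the difference was 2.26 and was called (limma adjusted p = 0.012). KRT7 changed by -1.07 in KB10973 and by -1.66 in KB10460, a difference of 0.59 (limma adjusted p = 0.33). KRT13, a keratin of mucosal stratified epithelia, had a difference of 0.54 (limma adjusted p = 0.15).

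The other intermediate filament genes changed in both directions. Vimentin (VIM) had log2 values of 8.97 to 9.83 in the iPSCs, against 12.40 in the KB10973 fibroblasts and 12.04 in the KB10460 fibroblasts. Its mean was 9.36 ± 0.34 in the 6 iPSC colonies and 12.22 ± 0.25 in the 2 fibroblast cultures (mean ± SD), a log2 fold change of -2.87 (standard error 0.23, limma adjusted p = 1.5e-05). Between the cell types VIM thus ran opposite to KRT8 and KRT18 while keeping a high signal in the iPSCs. Over the 6 colonies its r with KRT18 was 0.722, with no test. Of the 14 genes of this list, 4 were higher, 1 was lower and 9 were not called. Of all genes, 15.2% were higher and 11.5% lower. Those that were higher encode neuronal and progenitor filament proteins, with log2 fold changes of 2.87 for the internexin gene INA, 2.59 and 2.09 for the neurofilament genes NEFM and NEFL, and 2.20 for nestin (NES). The summed signal of the list was 1182 to 1637 in the iPSCs and 4442 to 5658 in the fibroblasts.

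Genes of the proteins that anchor keratin filaments at desmosomes and hemidesmosomes, or link them to each other, also split. Of 13 measured linkers, 4 were higher, 2 were lower and 7 were not called, where 15.2% of all genes were higher and 11.5% lower. Plakophilin 2 (PKP2) rose by 1.74 on the log2 scale, periplakin (PPL) by 1.38, desmoplakin (DSP), which ties keratin filaments to desmosomes, by 0.92 and plakophilin 4 (PKP4) by 0.91. DSP averaged 5.18 ± 0.20 in the 6 iPSC colonies and 4.26 ± 0.25 in the 2 fibroblast cultures (mean ± SD). Dystonin (DST), with -1.45, and plectin (PLEC), with -0.99, are linkers that mesenchymal cells also use, and both were lower. The summed signal of the list was 1635 to 1823 in the iPSCs and 1892 to 2055 in the fibroblasts.

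None of the 19 measured genes of the cornified envelope and the hair matrix was called by limma. Of all genes, 15.2% were higher and 11.5% lower. The summed signal of the 19 genes was 197 to 496 in the iPSCs and 199 to 212 in the fibroblasts. Of 12 measured genes in a list of transcription factors of epithelial cells or epidermis, 1 was higher, 2 were lower and 9 were not called, against these same shares. Their summed signal was 430 to 488 in the iPSCs and 558 to 623 in the fibroblasts. The gene called higher was ESRP1, an epithelial splicing regulator kept in this list though no transcription factor, which rose by 3.75 on the log2 scale. TFAP2A, an activator of epidermal genes, had log2 values of 3.71 to 3.93 in the iPSCs, against 8.02 in the KB10973 fibroblasts and 8.32 in the KB10460 fibroblasts (log2 fold change -4.32). Its relative TFAP2C was lower by a smaller margin (log2 fold change -0.64, limma adjusted p = 0.038).

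**Figure D5:**
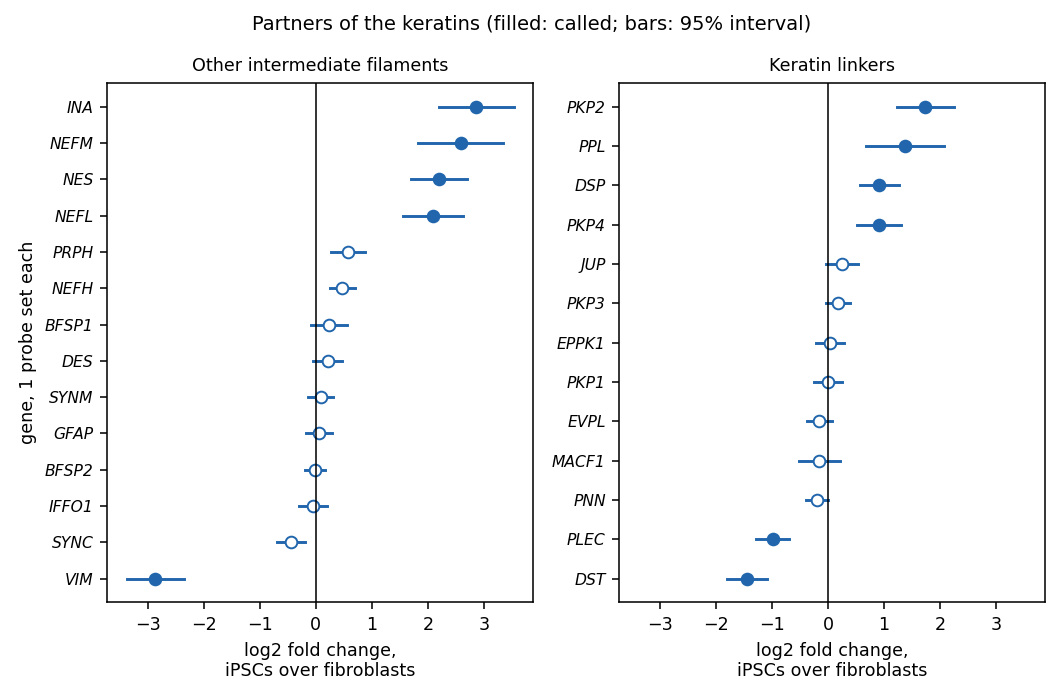
Log2 fold change of iPSCs over fibroblasts (horizontal axis, point with 95% interval from limma) for other intermediate filament genes (left) and keratin linkers (right), 1 probe set per gene, with filled points for called genes. INA, NEFM, NES and NEFL lie to the right and VIM to the left at -2.87, while PKP2, PPL, DSP and PKP4 lie to the right and PLEC and DST to the left.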

How the data were processed

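The authors hybridized biotin-labelled cRNA made from total RNA to 1-colour Affymetrix arrays made for human transcripts and normalized them with RMA in WebArray (version not given in the sources used here). The deposited values are log2 expression, and RMA would remove a change shared by most transcripts. The platform annotation gave 1 symbol to 19070 probe sets, several to 1043 (1 of them with a keratin) and none to 2164. Probes were designed on human transcripts and may read orangutan transcripts unequally, so levels of different genes are not strictly comparable. The summed signals, the percentiles within an array and the comparisons with the array median carry this limit. A sum can also rest on few genes with a high signal.

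The deposited values were fitted with limma (version 3.58.1, R 4.3.3, default eBayes, two-sided, no covariate), which compared 6 iPSC with 2 fibroblast arrays, the iPSCs of the donors, and the change between donors, with p-values adjusted over all probe sets. Correlations were tested by exact permutation in Python 3.11.15 with scipy 1.17.1. The fit was tested on simulated data.

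Named are every simple epithelial keratin, every called keratin, the 3 uncalled keratins with the largest change, the pairs KRT5 and KRT14 and KRT1 and KRT10, VIM, the 4 called genes with the largest change in each partner list, and the 5 genes most like KRT18. Other names were added after their values were seen. The members and lists were chosen with earlier results of these data known. The iPSCs and fibroblasts of a donor come from 1 animal, which pairs them. The donors' difference in fibroblasts and in iPSCs correlated at r = 0.018 across probe sets. Orangutan gene order was used only for neighbours. The number of arrays limits the precision. Comparison columns in the study's supplements, SNP arrays and immunostaining were not used here. Some list members are not reported here.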

Additional observations from a re-analysis of the deposited data

Results flagged for a closer look

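In 3 of 32 keratins 1 iPSC colony lay apart from the other 5 by a larger share of the group's range than Dixon's critical value allows, where chance gives about 1 in 20. KRT37 was at 3.37 in KB10460 colony 3, with the nearest colony at 3.20. KRT38 was at 3.13 in KB10973 colony 1, with the nearest at 2.93. KRT84 was at 2.92 in KB10973 colony 3, with the nearest at 3.12. Among 19 other named genes, TFAP2A was at 3.71 in KB10973 colony 1, with the nearest at 3.85. These 4 genes are at low signals in the iPSCs, and the gaps are small on the log2 scale.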

How the results depend on the processing

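Of 505 values recomputed under other settings, 476 stayed the same by the following rule. A fold change or correlation kept its direction and its side of the threshold. A count of called keratins was equal to the main count or within a ratio of 1.5. Some settings could not move a value, such as the mean of all probe sets for a gene with 1 probe set. Between iPSCs and fibroblasts, leaving out probe sets ending in _s_at or _x_at, which removes KRT8, KRT18 and KRT7, left 1 keratin higher and 1 lower, and keeping only probe sets with a mean log2 value over 4, which removes KRT75, left 1 lower. Without each array in turn the counts stayed at 3 higher and 2 lower. With the donor as a block they were 3 and 2 as well, and the donor block changed no call of a keratin. With the colony number as a block between the donors' iPSCs, 0 keratins were called. Colonies of the same number had correlations of deviations of -0.05, -0.01 and 0.06, and share only a number. In the difference of the change the count of higher keratins was 0 to 1 when leaving out each colony, the 1 being KRT19 without KB10460 colony 1 (2.26). A fibroblast array could not be left out there. With colonies averaged within donor, 2 keratins were higher, since KRT19 was not called (3.85, limma adjusted p = 0.084).

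The reversed values all belong to differences that were not called. Between iPSCs and fibroblasts, median centring gave 0.021 for KRT1 and 0.025 for KRT23, and array weights gave -0.0053 for KRT5. Leaving out each array gave -0.18 to 0.14 for KRT1, -0.082 to 0.044 for KRT23 and -0.026 to 0.041 for KRT5. Between the donors' iPSCs, KRT7 was at -0.026 with array weights, -0.0078 with median centring and -0.0086 with KB10973 colonies 1 and 2 averaged, which also gave -0.010 for KRT75. Leaving out each colony gave -0.48 to 0.070 for KRT18, -0.48 to 0.23 for KRT8, -0.093 to 0.076 for KRT7 and -0.033 to 0.087 for KRT75. In the difference of the change it gave -0.43 to 0.12 for KRT18 and -0.22 to 0.49 for KRT8. The cause of these reversals was not tested. The correlations over colonies lay between 0.883 and 0.993 with 1 colony left out or with median centring, and the lowest without 2 colonies was 0.875. The mean of all probe sets repeats the main correlations, since KRT8, KRT18 and KRT19 have 1 probe set each.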

Other observations

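SPRR3, a small proline-rich protein of the cornified envelope of mucosal epithelia, varied more between iPSC colonies than any keratin and was named after its values were seen. It was at 8.23, 6.61 and 4.73 in KB10973 colonies 1, 2 and 3 and at 3.16, 6.01 and 6.28 in KB10460 colonies 1, 2 and 3, against 3.64 in the KB10973 fibroblasts and 3.35 in the KB10460 fibroblasts. The groups overlapped, and limma did not call SPRR3, at 2.34 with a standard error of 1.06 on the log2 scale (adjusted p = 0.14).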
